A study of Drosophila melanogaster with 6 samples.

Results

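The 9 genes described here build storage fat or coat and open the lipid droplets that hold it. They were taken by name: FASN1, ACC, ATPCL, SREBP, Desat1 and mdy for synthesis, Lsd-1 and Lsd-2 for the droplet coat and bmm for the droplet lipase. Each had 1 probe set of its own, among 11953 genes with one, and 8 of the 9 were bright enough to be tested among 7801 genes. The names did not rest on measured values, but they were proposed with earlier results of these data in view.

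Male Drosophila melanogaster larvae of the third instar were compared in 2 genotypes that both carried y+, w and a roX2 mutation over the Y chromosome. The mutant group had in addition the roX1 allele SMC17A (genotype y+ w roX1- roX2-, 3 arrays), and the control group was roX1+ (y+ w roX1+ roX2-, 3 arrays), so that it is labelled as wild type but lacks roX2. Each array held total RNA of 1 preparation from 50 pooled whole larvae, on a single-colour Affymetrix Drosophila Genome 2.0 array, and the labels give no hours of age. The roX RNAs are noncoding parts of the MSL complex, which raises transcription of the single male X chromosome, and the study asks how expression differs when roX1 is also mutated.

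Insects make fatty acids mainly in the fat body, an organ that combines roles of liver and adipose tissue. ATPCL cleaves citrate to acetyl-CoA, ACC carboxylates it to malonyl-CoA, and fatty acid synthase (FASN1) joins these units into a saturated chain into which Desat1 places a double bond. Chains are esterified to glycerol in steps that end with a diacylglycerol acyltransferase such as mdy, and the resulting triacylglycerol is stored in droplets coated by the perilipins Lsd-1 and Lsd-2, from which the lipase bmm releases it. SREBP is the membrane-bound transcription factor known in flies for driving fatty acid synthesis genes.

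All signals below are deposited intensities multiplied by 1 factor per array that set the median of the tested autosomal genes to 100, and log2 differences are given for mutant over control, from the mean log2 signals. A gene passed at an adjusted p under 0.05 (limma, Benjamini-Hochberg over all 7801 genes). By that rule 23.1% of all tested genes rose and 32.4% fell, so a call is common here (25.5% and 29.4% on chromosomes 2 and 3), and the median difference of all tested genes was -0.06. Arrays correlated across genes at 0.972 or higher within the mutant group, at 0.984 or higher within the control group and at 0.926 or lower between groups. As no probe set carried the name of either roX gene, the genotypes could not be checked on the arrays. The design text calls the 3 preparations of each genotype independent. Their number limits precision, and p-values measure the spread between these preparations.

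FASN1, ACC, SREBP and Desat1 were higher in the roX1 roX2 mutant, FASN1 and ACC by the most, while ATPCL was too dim to test. FASN1, the main fatty acid synthase of the fat body, had scaled signals of 809, 1220 and 926 on the mutant arrays against 205, 194 and 175 on the control arrays. Every mutant array stood far above every control array, and the mutant arrays were the more variable group. The rise was 5.08-fold, a log2 difference of 2.35 (SE 0.147, n = 3 per group, limma adjusted p = 5.65e-05), which ranked 33 from the top among 7801 genes. The rise was at least 2.18 on the log2 scale whichever single array was left out.

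ACC, which encodes the acetyl-CoA carboxylase that supplies FASN1 with malonyl-CoA, read 115, 177 and 120 in the mutant against 46.1, 34.2 and 41 in the control. Array 2 was the highest mutant array for both genes. ACC rose by a log2 difference of 1.75 (SE 0.18, limma adjusted p = 0.000234), or 3.36-fold. The control signals were low, and with an offset of 50 added before taking the logarithm the difference was 1.04.

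SREBP had signals of 249, 293 and 280 in the mutant against 152, 108 and 131 in the control. The groups did not overlap, and the gene rose 2.11-fold (log2 1.08, SE 0.132, limma adjusted p = 0.000436). FASN1, ACC and SREBP thus rose at least 2-fold, as did 3.11% of all tested genes. SREBP fell short of 2-fold with the offset of 50 (log2 0.85) and without control array 2 (log2 0.95). Desat1, the stearoyl-CoA desaturase gene, rose less: it read 961, 967 and 1069 in the mutant against 640, 810 and 772 in the control. Its log2 difference was 0.44 (SE 0.0979, limma adjusted p = 0.00633), a 1.35-fold change.

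The probe set of ATPCL was dim on all 6 arrays and was not tested in the main comparison. It read 7.10, 6.48 and 7.58 in the mutant against 10.04, 10.4 and 8.50 in the control, all below the median probe set of the array (28.9). The mutant arrays were lower, the opposite direction to FASN1 and ACC, but whether this probe set detects the main transcript could not be checked. When all genes were tested with no filter on signal, the log2 difference was -0.45 (limma adjusted p = 0.0735), so no change was shown, and at this signal the size is uncertain.

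The last step of triacylglycerol synthesis went the other way. mdy, which encodes a diacylglycerol acyltransferase of the DGAT1 family, read 69.8, 63.2 and 62.1 in the mutant against 148, 161 and 152 in the control. Both groups were tight and widely separated, and the mutant signal was 0.423 times the control signal. The log2 difference was -1.24 (SE 0.084, limma adjusted p = 7.74e-05), or -0.83 with the offset of 50, and ranked 143 from the bottom among the 7801 genes.

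**Figure D1:**
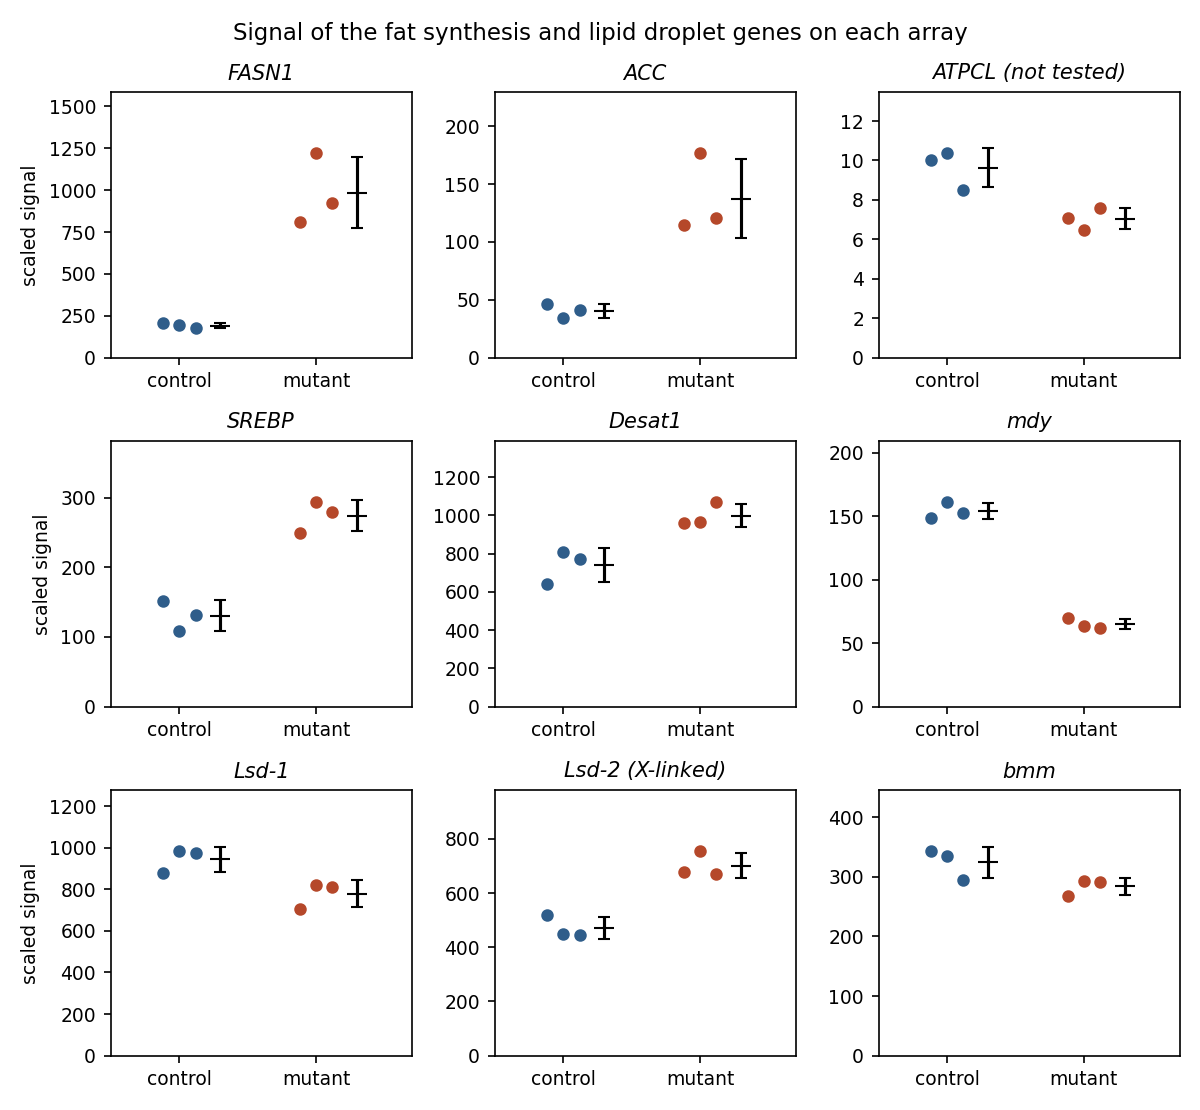
Scaled signal (y axis, each panel from 0 with its own range) of the 9 genes on each of the 3 control arrays (blue) and 3 mutant arrays (red); black bars give the mean and SD. FASN1, ACC, SREBP, Desat1 and Lsd-2 are higher on every mutant array, and ATPCL, mdy, Lsd-1 and bmm are lower on every mutant array.

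Of the 2 droplet coat genes, Lsd-2 rose and Lsd-1 fell slightly. Lsd-2, the perilipin known in flies for shielding stored fat from lipases, read 677, 754 and 671 in the mutant against 519, 449 and 445 in the control. No mutant array came down to the control range, and the gene rose 1.49-fold (log2 0.57, SE 0.0877, limma adjusted p = 0.00111). Lsd-1, the perilipin known for its role in hormone-stimulated breakdown of fat, read 704, 821 and 812 in the mutant against 876, 983 and 973 in the control. The groups did not overlap but lay close, and the log2 difference was -0.28 (SE 0.0834, limma adjusted p = 0.0218). This call was lost without rescaling of the arrays (adjusted p = 0.119), without control array 2 (0.0813) and without control array 3 (0.0769).

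Lsd-2 is the only X-linked gene among the 9, and X-linked genes as a whole were lower in the mutant. The median difference was -0.29 over 1111 tested X-linked genes and -0.02 over 6636 genes of chromosomes 2 and 3. On X, 10.4% of the tested genes rose and 48.1% fell. Lsd-2 was among the 115 that rose, at rank 62 from the top of the X chromosome, and stood 0.86 above the X median on the log2 scale.

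bmm, the fly triacylglycerol lipase related to mammalian ATGL, did not pass. It read 268, 293 and 292 in the mutant against 343, 335 and 295 in the control, so that the highest mutant array lay just under the lowest control array. The log2 difference was -0.19 (SE 0.0875, 95% interval -0.39 to 0.01, limma adjusted p = 0.099). The adjusted p was between 0.0587 and 0.575 over all alternatives with a test, so none gave a call.

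Among the 8 tested members, 5 rose, 2 fell and 1 did not pass, against rises in 23.1% and falls in 32.4% of all tested genes. Their median difference was 0.51, against -0.06 for all tested genes. All 8 had groups that did not overlap, 5 with the mutant above and 3 with the mutant below, while 63.4% of all tested genes did so in either direction (26.4% above and 36.9% below). The 5 rises held on leaving out each array in turn and under every other alternative tried. Mutant array 1 lay nearest to the control mean for 5 of the 8 members, as it did for 38% of all tested genes.

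**Figure D2:**
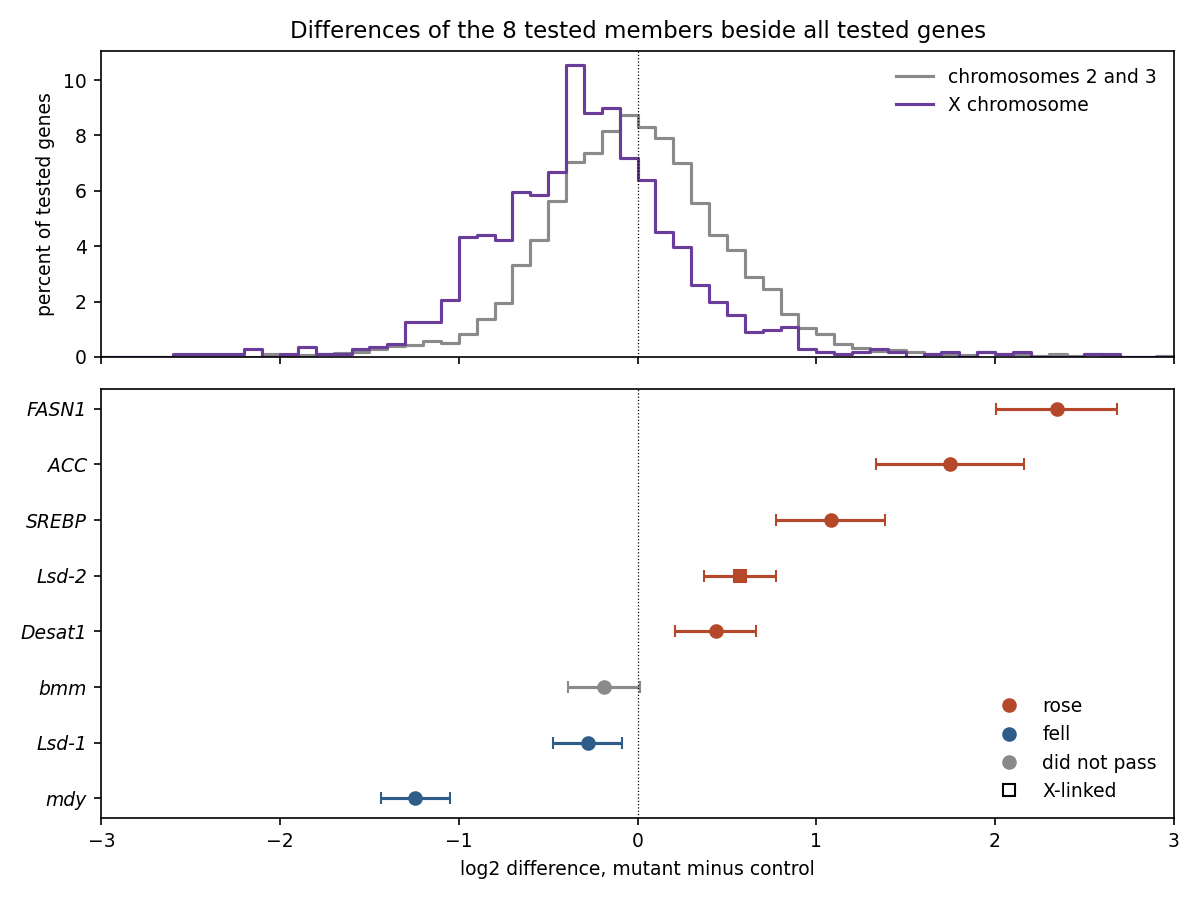
Top, share of tested genes (percent, bins of 0.1) by log2 difference for chromosomes 2 and 3 and for X, cut at -3 and 3; bottom, log2 difference of each tested member with its 95% interval from limma. FASN1 (2.35) and ACC (1.75) lie in the right tail of both distributions, mdy (-1.24) lies in the left tail, and the interval of bmm reaches 0.01.

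Ratios within an array do not depend on how that array was scaled. The log2 ratio of Lsd-2 to Lsd-1 was -0.06, -0.12 and -0.27 on the mutant arrays against -0.75, -1.13 and -1.13 on the control arrays. It was therefore 0.85 higher in the mutant, with SDs of 0.111 and 0.216 (n = 3 each), and a two-sided permutation test, exact over all splits, gave p = 0.1, the lowest that 3 against 3 allows. The log2 ratio of FASN1 to bmm was 1.59, 2.06 and 1.67 on the mutant arrays against -0.74, -0.79 and -0.75 on the control arrays. The difference of 2.53 again gave an exact permutation p = 0.1. Each pair joins a gene that was higher on every mutant array with a gene that was lower on every mutant array. The ratios therefore had to separate the groups and p could only be 0.1, so the test adds no support to the values of the single genes. Signals of different probe sets cannot be set against each other as levels, so only the difference of a ratio between groups is read here.

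**Figure D3:**
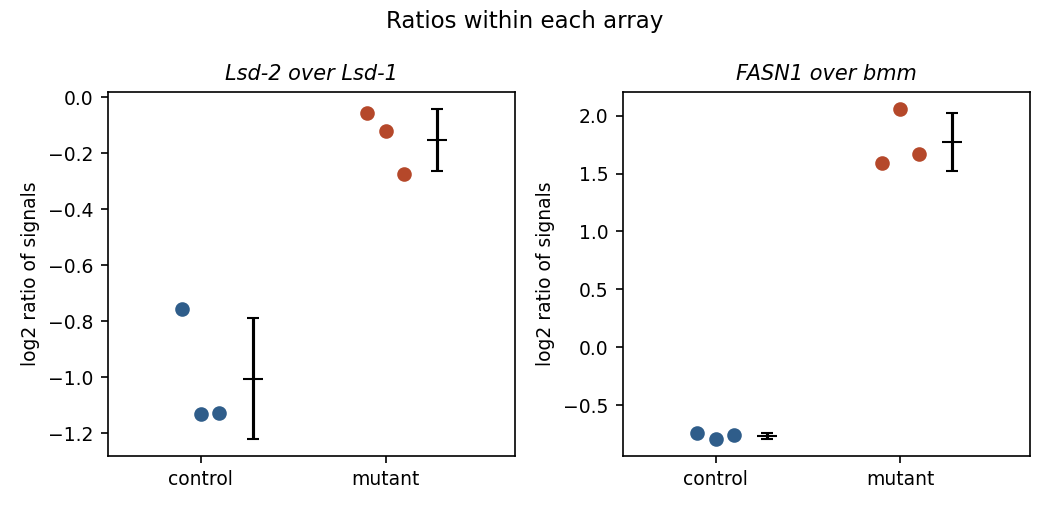
Log2 ratio of the signals of Lsd-2 over Lsd-1 (left) and of FASN1 over bmm (right) on each control (blue) and mutant (red) array, with mean and SD in black. The groups are separated in both panels, by 0.85 and 2.53 between the means.

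The genes outside the 9 whose signals followed FASN1 most closely over the 6 arrays were CG17549, CG6701, CG7920, CG4098 and Gasp, which encodes a chitin-binding protein. Their Pearson r with FASN1 was 0.998, 0.998, 0.998, 0.998 and 0.997. All 5 rose, with log2 differences of 0.58, 0.66, 1.54, 0.70 and 0.76. These correlations describe 6 arrays that fall into 2 separated groups, so they mostly restate the group difference, and no test was made of them.

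The rest of the pathway was described from lists of 118 further genes, of which 107 had a probe set of their own and 83 were tested. Of the 83, 33 rose (39.8%), 17 fell (20.5%) and 33 did not pass, with a median difference of 0.11. These shares compare with 23.1% and 32.4% of all tested genes; no test was made of the lists as sets. The 7 tested X-linked genes among them gave 3 falls and no rise (limma), nor any rise at an unadjusted p under 0.05. Over all tested X-linked genes 48.1% fell and 10.4% rose, so falls are common on X.

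The measured genes of the citrate and NADPH supply list, which includes genes of the pentose phosphate pathway, mostly rose. All 7 with a probe set of their own were tested, and 6 rose (limma), with a list median of 0.66. Of all tested genes 23.1% rose, and of those on chromosomes 2 and 3, where these 6 lie, 25.5% rose. Men, the cytosolic malic enzyme that makes NADPH, read 400, 536 and 442 in the mutant against 176, 154 and 168 in the control. Its groups were well apart, and it rose 2.75-fold (log2 1.46, SE 0.119, limma adjusted p = 0.000111). Men-b, another malic enzyme gene, rose by a log2 difference of 0.75, and Idh, an NADP-dependent isocitrate dehydrogenase gene, by 0.39. In the pentose phosphate pathway, Rpi (0.85), the transketolase gene CG8036 (0.66) and Taldo, the transaldolase gene (0.34), rose. The exception was the X-linked Pgls, the 6-phosphogluconolactonase gene, which fell (-0.46, limma adjusted p = 0.00335). The citrate carrier gene sea and the X-linked genes kdn (citrate synthase), Zw and Pgd had no probe set of their own in the table used and were not analysed here. The supply of citrate and NADPH as a whole was therefore not measured. The Taldo call was lost without mutant array 2 or control arrays 1 or 2.

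Elongation, desaturation and activation of fatty acids showed no common direction. Of 16 tested genes, 4 rose, 4 fell and 8 did not pass, with a median of -0.01. bgm, which encodes a very long chain acyl-CoA synthetase, had signals of 154, 215 and 172 in the mutant against 60.3, 57.6 and 63.9 in the control. It rose 2.95-fold (log2 1.56, SE 0.126, limma adjusted p = 0.000109), and Fatp1, a fatty acid transport protein gene, rose by 0.80. AcCoAS, acetyl-CoA synthetase (0.48), and Cyt-b5, the electron donor of desaturases (0.29), also rose, though AcCoAS lost its call without any one of the control arrays (adjusted p of 0.0528 to 0.0722) and Cyt-b5 without mutant array 2 or control array 1. The X-linked spidey (-0.35) and Hacd2 (-0.36), which act in consecutive steps of chain elongation, fell, as did Fatp3 (-0.63). FASN3, a synthase of the oenocytes, fell by 0.36 on the log2 scale, so the synthase genes did not move together. The calls of spidey, Hacd2 and FASN3 were lost without rescaling, and that of FASN3 also without control array 2 or 3. FASN2 was dim, between 10.6 and 17.5 in the mutant against at most 2.21 in the control, where 1 array lay below 0, and no fold is given. Among the other dim genes, with no filter on signal, Elo68alpha (-2.22, limma adjusted p = 0.000681) and Elo68beta (-1.86, 0.00532) fell and beg rose (0.38, 0.0387).

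Among regulators of lipid synthesis, 8 of 16 tested genes rose, 1 fell and 7 did not pass (median 0.25). sug, a zinc finger factor known in flies for its induction by dietary sugar, read 177, 207 and 253 in the mutant against 82.2, 69.8 and 56.5 in the control. It rose 3.06-fold (log2 1.61, SE 0.168, limma adjusted p = 0.000242). SCAP, the escort protein that SREBP needs for its activation, rose by 0.47, the nuclear receptor genes Hr96 and svp by 0.47 and 0.50, and Hnf4 by 0.49. Mondo, the sugar-sensing partner of bigmax, rose by 0.41, while bigmax itself stood at 0.16 (adjusted p = 0.239, limma). gig, a TOR pathway inhibitor, rose by 0.58 and foxo by 0.24, the latter at a limma adjusted p of 0.0496 and with its call lost under several alternatives, leaving out mutant array 1 or 2 or control array 2 or 3 among them. Among the 16 tested, the only fall was in the ecdysone-responsive nuclear receptor gene Eip78C (-1.90, limma adjusted p = 0.0129). It read 114 on mutant array 1 against 26.8 and 31.9 on the others and 132 to 232 in controls. Without mutant array 1 the difference was -2.56. With the offset of 50 the differences were smaller, at 1.13 for sug, 0.26 for gig, 0.30 for SCAP, 0.30 for Hr96 and -1.14 for Eip78C. S1P, ERR and alc were under the signal filter. With no filter S1P (-1.02, limma adjusted p = 0.000475) and ERR (-0.50, 0.0176) fell, from dim signals, and alc did not pass (0.36, 0.264). S1P read 17.4, 16.3 and 16.4 in the mutant against 36.1, 35.8 and 29.8 in the control.

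Glycerolipid synthesis genes moved in both directions. Of 14 tested genes, 6 rose, 4 fell and 4 did not pass (median 0.08). In the steps before mdy, mino, a mitochondrial glycerol-3-phosphate acyltransferase gene (0.37), Agpat4 (1.95) and the phosphatidate phosphatase gene Lpin (0.59) rose, while Agpat2 (-0.61) fell, and Gpat4 (0.13) and Agpat3 (-0.05) did not pass. With the offset of 50 Lpin stood at 0.38. Agpat4 read 90.2, 164 and 166 in the mutant against 38.9, 42.3 and 26.0 in the control, so mutant array 1 was the closest to the controls, and its log2 difference had an SE of 0.266 (limma adjusted p = 0.000693; log2 1.13 with the offset of 50). At the last step Dgat2, the other diacylglycerol acyltransferase gene measured, fell as mdy did. It read 26.4, 30.4 and 26.3 in the mutant against 44.2, 42.9 and 40.4 in the control (log2 -0.62, SE 0.102, limma adjusted p = 0.00154), and as the mutant mean lay under the median probe set its size is uncertain (-0.25 with the offset).

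Among the phospholipid synthesis genes, Pcyt1 (0.66) and Pcyt2 (0.54), whose products activate phosphocholine, rose, Pcyt1 by 0.42 with the offset. Pisd, phosphatidylserine decarboxylase, rose as well (0.62). The X-linked ethanolamine kinase gene eas read 83.2, 73.7 and 75.1 in the mutant against 225, 215 and 214 in the control. Its log2 difference was -1.50 (SE 0.0824, limma adjusted p = 4.47e-05), or -1.08 with the offset, with both groups tight. Cds, which makes CDP-diacylglycerol, stood at -0.26 and passed in the main comparison (adjusted p = 0.0254), but not without rescaling, with all-gene scaling, with the replicate block or without control array 1 or 2.

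**Figure D4:**
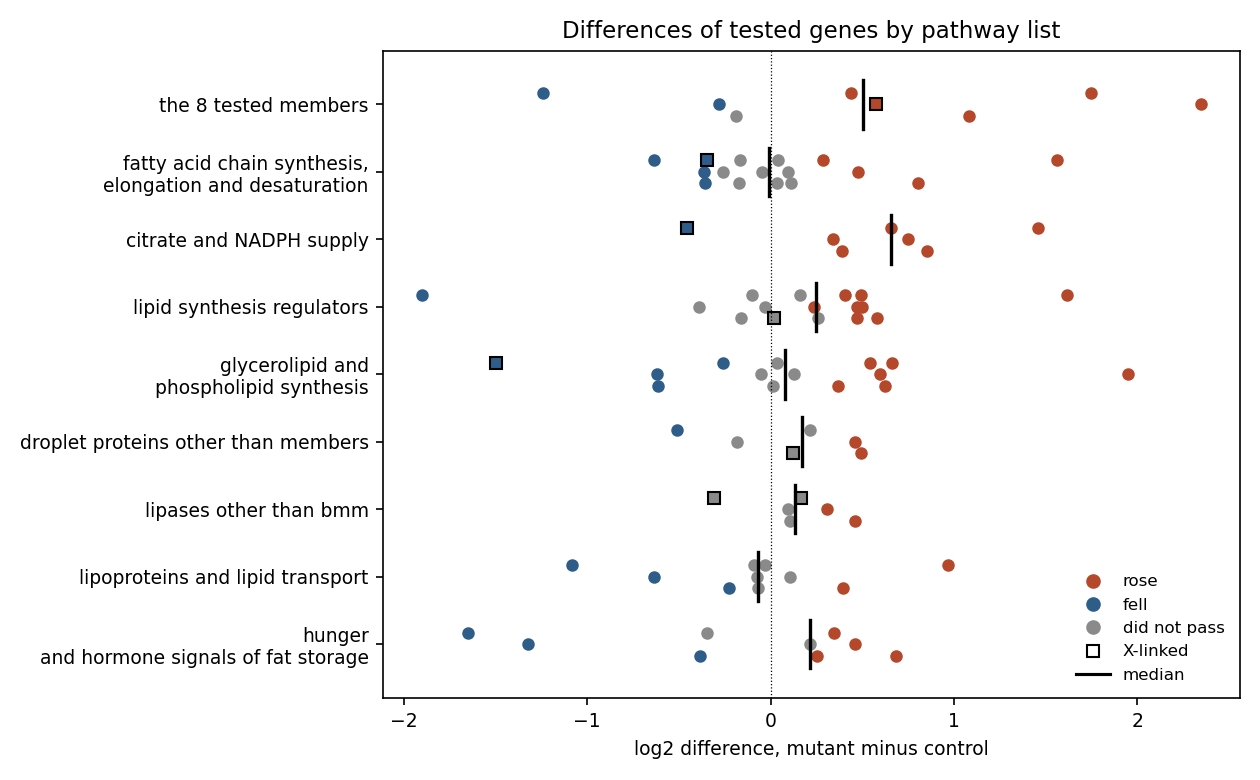
Log2 difference (x axis) of each tested gene by list (rows), coloured by whether it rose, fell or did not pass, with X-linked genes as squares and the list median as a black bar. The citrate and NADPH list lies to the right of 0 apart from the X-linked Pgls (-0.46), while other lists spread to both sides.

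Droplet proteins other than the perilipins changed in both directions. Of 6 tested genes, Fitm, an endoplasmic reticulum protein gene of fat storage (0.50, limma adjusted p = 0.00301), and klar, which links motor proteins to droplets (0.46, 0.0293), rose. sturkopf, a droplet-associated protein gene, fell (-0.51, 0.00158). Jabba, the histone anchor on droplets, stood at 0.22 (limma adjusted p = 0.189), Rab32 at -0.18 (0.191) and the X-linked Ldsdh1 at 0.12 (0.66). klar lost its call without control array 1 or 2, Ldsdh1 gained one without mutant array 1 (0.40, adjusted p = 0.0135), and Fitm stood at 0.26 with the offset. Seipin was under the signal filter.

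Lipases besides bmm gave 2 rises and no fall among 6 tested genes (limma), nor a fall at an unadjusted p under 0.05. PAPLA1, a phosphatidic acid phospholipase gene, rose by 0.31, and Lip4 rose by 0.46 with 1 mutant array in the control range. Both calls were lost on leaving out single arrays, at adjusted p up to 0.0776 and 0.129, and that of Lip4 also with the replicate block (0.0746). With the offset Lip4 stood at 0.28. mag, the gut triacylglycerol lipase gene, stood at 0.10, CG17292 at 0.11, sws at 0.16 and CG5966 at -0.31, none of which passed. mag did pass without rescaling (0.22, limma adjusted p = 0.0276) and with quantile normalisation (0.22, 0.0191). Lip3, a lipase gene known for its induction by starvation, was under the signal filter, at 4.92 to 6.73 in the mutant against 13.8 to 20.9 in the control. The other untested lipase genes were dob, Lip1, Lip2 and inaE. When all genes were tested with no filter on signal, Lip1 (-1.46, limma adjusted p = 0.015), Lip3 (-1.47, 0.00116) and the X-linked inaE (-1.10, 0.000533) fell and the X-linked dob rose (1.51, 0.00112), all from dim signals.

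Lipid transport genes gave 2 rises and 3 falls among 10 tested. GLaz and Snmp1 were under the signal filter, and with no filter both fell from dim signals (-0.78, limma adjusted p = 0.0021, and -0.71, 0.0253). Apoltp, a lipid transfer particle gene of the fat body, rose by 0.97 (SE 0.174, limma adjusted p = 0.00233; 0.61 with the offset) and the lipophorin receptor gene LpR1 by 0.40. The sterol transporter gene Npc1a (-0.64), the fatty acid binding protein gene fabp (-0.23) and the lipocalin gene NLaz (-1.08) fell. NLaz read 220 on mutant array 1, within the control range of 181 to 292, and 80.0 and 89.7 on the other 2, and without that array the difference was -1.54. Its call was lost without mutant array 2 or 3, without control array 2 or 3, without rescaling, with robust eBayes and with the replicate block (adjusted p = 0.0649), and that of fabp without rescaling. apolpp (-0.07), Mtp (-0.09), LpR2 (-0.03), Npc2a (-0.07) and Npc2b (0.11) did not pass; the first 4 turned sign under another scaling.

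The list of hunger and hormone signals of fat storage also holds enzyme genes and a peptide gene of the fat body. It gave 4 rises and 3 falls among 9 tested genes. AkhR, the receptor of the adipokinetic hormone that mobilises fat, rose by 0.68 (limma adjusted p = 0.0111). The activin-like ligand gene daw (0.34), Pepck1 (0.25) and Lip4, already given, also passed, but daw lost its call without control array 3 and Pepck1 without mutant array 1 or 2 or control array 2 or 3. Gbp1, a growth-blocking peptide gene of the fat body, read 68.3, 55.5 and 46.1 in the mutant against 135, 142 and 141 in the control. Its log2 difference was -1.32 (SE 0.137, limma adjusted p = 0.000237). The lipase-like gene sxe2 (-1.65) and ImpL2, a secreted binder of insulin-like peptides (-0.38), also fell, the latter not without rescaling. With the offset of 50 Gbp1 stood at -0.84 and sxe2, whose mutant signals of 20.7 to 37.3 lay around the median probe set, at -0.83. InR (-0.35, limma adjusted p = 0.0601) and babo (0.22, 0.132) did not pass, but InR did without mutant array 1 (-0.46, 0.013) and without control array 1 (-0.43, 0.0428). Akh, tobi, upd2, Ilp2 and Ilp5 were under the signal filter, and with no filter Akh (-0.79, limma adjusted p = 0.00612) fell and tobi (1.57, 0.0344) rose.

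Fewer cells of a type and less RNA per cell cannot be told apart in RNA of whole larvae, so marker genes are given beside these results. The 6 fat body markers measured, of 8 listed, gave 2 rises and 1 fall (median -0.08). Their summed signal was 7854 to 8992 on the mutant arrays against 8734 to 9006 on the control arrays, which overlapped. Fbp1 fell by 0.26 on the log2 scale, though not without rescaling or with quantile normalisation, Apoltp rose, Fbp2 (0.29) rose with a call lost on leaving out any one array but mutant array 1, and Lsp2 stood at -0.10 (limma adjusted p = 0.161). Oenocyte markers, summed over 4 of 4, stood at 1194 to 1318 in the mutant against 1073 to 1173 in the control, with a rise in Cyp4g1 (0.76), falls in FarO (-0.44) and FASN3, and KFase at 0.44 (limma adjusted p = 0.101). FarO lay close to the median probe set and stood at -0.19 with the offset, and KFase passed without rescaling (0.57) and without mutant array 1 (0.70).

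Midgut markers, 7 of 7 listed, summed to 6448 to 7493 in the mutant against 6879 to 7419 in the control, with a rise in Mal-A1 (1.003, or 0.56 with the offset, and lost without control array 2) and a fall in Npc2d (-0.74). Jon25Bi (-0.24), Jon65Ai (-0.14), alphaTry (-0.09), mag and betaTry (0.33) did not pass, though betaTry did without rescaling, with quantile normalisation and without mutant array 3. The 6 glue genes of the salivary gland, which are switched on late in the third instar, summed to 12381 to 12842 in the mutant against 14975 to 15305 in the control. Sgs4, Sgs3, Sgs5, Sgs7 and Sgs8 fell, the X-linked Sgs4 most (-0.68), Sgs1 stood at 0.06 (limma adjusted p = 0.693), and between 1 and 5 of the glue genes passed as falls over the alternatives. Testis markers summed to 3169 to 3846 in the mutant against 2338 to 2694 in the control, with 4 rises among 5 tested of 6. S-Lap2 (0.78), Mst98Cb (0.74), betaTub85D (0.62) and Mst98Ca (0.59) rose, and Mst87F (-0.01) did not pass. The testis gene can was under the signal filter, and with no filter it fell from a dim signal (-0.48, limma adjusted p = 0.00669). Of 5 muscle markers only up (0.77, a rise) and Mlc2 (-0.21, not passing) were measured, summing to 798 to 1109 in the mutant against 556 to 640 in the control. No marker measured had a mean signal at 0, and the part of tissue make-up, of stage and of feeding in the changes of the fat genes was not tested.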

How the data were processed

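The authors deposited a linear intensity for each probe set on each array; GCOS 1.2 appears in the submitters' processing notes. According to the design text in the labels, they scaled autosomal transcripts to a median of 100 on each array, applied the same factor to X, and filtered on present and absent calls. The sources used here give no summarisation algorithm. The deposited medians over all probe sets were 102 to 108, and which genes were scaled on is not known.

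Probe sets were named through the platform table, updated by gene ID to RefSeq (Release 6 plus ISO1 MT, names and chromosomes only): 13647 of 18952 had 1 gene, 402 several and 4720 none. The upper 50% by mean log2 signal were kept (9384), values at or below 0 (113 to 169 per array) were set to the lowest positive value, and the brightest probe set stood for each gene (7801). Each array was multiplied by 1 factor, 0.246 to 0.262 on the mutant arrays and 0.279 to 0.28 on the control arrays. The factors thus separated by group. Genes were tested with limma 3.58.1 in R 4.3.3 (eBayes with trend, group only), checked on simulated data. Ratios were compared by exact permutation.

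Deviations from the group means gave no sign of pairing by equal replicate number: they correlated at -0.34, -0.06 and -0.38 for replicates 1, 2 and 3. Arrays of unequal number correlated from -0.36 (mutant 2, control 3) to 0.51 (mutant 1, control 3). Deviations of 3 arrays from their own mean are tied to each other, so these values cannot settle whether arrays were paired. The replicate block used equal numbers, so it does not check for a batch shared under other numbers. Members, lists and tests were chosen with earlier results of these data known. The rule for further names was the 4 genes of smallest p in each list, optionally all genes of lists with at most 10 tested, and the 5 closest to FASN1; other names, among them Mondo, bigmax, Hnf4, gig, foxo, Eip78C, Lpin, mino, Pcyt1, Pcyt2, Agpat2, Cds, FASN2, FASN3, Fatp3, AcCoAS, Cyt-b5, Gpat4, Agpat3 and the genes under the signal filter, were chosen after their values were seen. Names that matched no gene or the wrong gene were dropped before values were read, and Lpin was moved between lists then. Alternatives were scaling, filter, offset, variance model, probe set choice, replicate block, linear means and leaving out each array. No sequences were used here.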

Additional observations from a re-analysis of the deposited data

How the results depend on the processing

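Of the results on the members, all kept their direction under every alternative tried, and calls changed for Lsd-1 alone. Without rescaling Lsd-1 stood at -0.15 (adjusted p = 0.119) and 1 member fell in place of 2. On leaving out 1 array Lsd-1 ran from -0.33 to -0.21 and the falls among members from 1 to 2, while the rises stayed at 5. FASN1 ran from 2.18 to 2.48, ACC from 1.55 to 1.86 and mdy from -1.29 to -1.21. Without rescaling the median of all tested genes was 0.07 in place of -0.06, and rises made up 58.5% of all calls in place of 41.7%, so directions of small differences are relative to the autosomal median. The replicate block moved the rises of all genes from 1805 to 1529 and the falls from 2525 to 2166, and changed no call among the members. 

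Of 89 other named genes followed over the alternatives, 56 kept their call and direction under every one. Another 27 lost or gained a call and 7 turned direction, Ldsdh1 being in both of these groups. The 89 do not include Agpat3, Gpat4, bigmax, Sgs1, Sgs7, Jon25Bi, alphaTry, Mst87F or the genes under the signal filter. Among the genes left out, Sgs7 passed in the main comparison (limma adjusted p = 0.0274) but not with no filter on signal (0.0723). The 7 that turned were not passing in the main comparison. Without rescaling LpR2 stood at 0.0968, Lsp2 at 0.0271, Mtp at 0.0387, Npc2a at 0.0606 and apolpp at 0.0550. With quantile normalisation LpR2 stood at 0.00462, Lsp2 at 0.0392 and apolpp at 0.0496, and with all-gene scaling LpR2 at 0.0164. On leaving out 1 array LpR2 ran from -0.11 to 0.0676, Ldsdh1 from -0.0391 to 0.40, Mlc2 from -0.41 to 0.0248, Mtp from -0.16 to 0.00713 and apolpp from -0.12 to 0.0156. Counts that moved by over 1.5 times under some alternative were, for chain synthesis genes, the rises (4, range 2 to 6) and falls (4, range 1 to 6), and for regulators the falls (1, range 1 to 3). For droplet proteins the rises (2, range 1 to 3), for lipases the rises (2, range 0 to 3) and falls (0, range 0 to 3), for lipid transport the falls (3, range 1 to 5) and for hunger signals the rises (4, range 1 to 4) moved so far. Among markers these were fat body rises (2, range 1 to 2) and falls (1, range 0 to 1), oenocyte rises (1, range 1 to 2) and falls (2, range 1 to 2), midgut rises (1, range 0 to 3), glue falls (5, range 1 to 5) and testis falls (0, range 0 to 1). Signal below the median probe set, as for ATPCL, FASN2 and Lip3, or close to it, as for Dgat2, sxe2 and FarO, limits what can be said of size.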
